A study of Mus musculus with 2 samples.

Results

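The genes described here are 10 markers and effectors of mural cells, the pericytes and smooth muscle cells that wrap blood vessels: Pdgfrb, Cspg4, Rgs5, Kcnj8, Abcc9, Mcam, Myh11, Myocd, Tagln and Cnn1. They were taken by name, 10 of 21853 protein-coding genes in the annotation (GENCODE M21, mm10), each with its gene body and 20 kb on each side. All 10 were found, and their windows together cover 828 kb. The data are DNase-seq, which marks open chromatin by the cuts DNase I makes in nuclei, of gastrocnemius (a calf muscle) from male B6CASTF1/J mice, a hybrid of B6 and CAST parents, aged 10 days. There was 1 group with 2 libraries, called biological replicates 1 and 2, each labelled with 3 males, with no treatment named and with the same donor record for both; whether the 3 males were pooled is not stated in the labels. With 1 group no conditions could be compared, and the errors available are the counting error of each value and the spread between the libraries, which may be technical.

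Mural cells are recruited to growing vessels by PDGF-B from the endothelium, which acts on the receptor encoded by Pdgfrb. Pericytes sit on capillaries and smooth muscle cells on arterioles, arteries and veins, where their contraction sets blood flow. In smooth muscle, serum response factor (SRF) binds a sequence called the CArG box, and its coactivator myocardin, encoded by Myocd, turns on contractile genes such as Myh11, Tagln and Cnn1. In skeletal muscle such cells are a minority among myofibre nuclei.

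The whole libraries held 123255 peaks and 310961 footprints in replicate 1, and 150088 peaks and 373154 footprints in replicate 2. A peak is a stretch of open chromatin with a value, the deposited signal scaled to library depth. Values came in whole steps (100% of them in either library), so that 1 step can be read as 1 tag, a DNase I cut seen as a read, which puts the median peak at 134 tags in replicate 1 and 122 in replicate 2. All intervals below are exact 95% Poisson intervals of those tags and cover counting error only. A footprint is a short stretch inside open chromatin that was protected from cleavage. Of 12 myofibre genes such as Acta1, Ckm, Mylpf and Ryr1, 12 held a promoter peak in both libraries, against 66.0% of all protein-coding genes. All 10 genes described here and every gene of the PDGF and vasoactive lists below did so as well, so this count does not identify the tissue. In tissue with many cell types, fewer cells with an open site and a site that is open in a smaller part of the same cells cannot be told apart.

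All 10 mural promoters held a peak in both libraries, where 66.0% of all protein-coding genes did. A promoter was the 500 bp on either side of the start of any protein-coding transcript, and its value was its highest peak. The values were low for open promoters: the medians over the 10 genes were 1.70 in replicate 1 and 2.44 in replicate 2, against 4.64 and 6.44 over all open promoters. Each mural promoter lay below the median of all open promoters in both libraries, with ranks between the percentiles 1.84 and 48.2. Myh11 in replicate 1 came within counting error of that median, with an interval up to 4.76. The ratio of observed to expected CpG in these promoters had a median of 0.379, against 0.561 over all coding genes, from 0.210 at Cnn1 to 0.688 at Mcam. In the stricter of the deposited peak sets 7 of the 10 promoters were open in both libraries, where 61.8% of all coding genes were. The others were Rgs5 and Cnn1, which lacked a stricter peak in replicate 1, and Tagln, which lacked one in replicate 2.

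**Figure D1:**
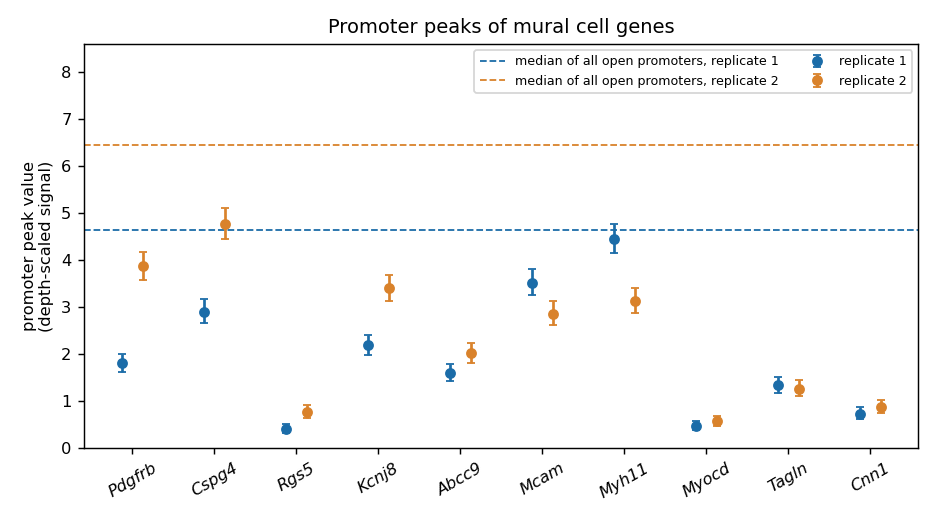
Promoter peak value (depth-scaled signal) of each mural cell gene in replicate 1 and replicate 2, with exact 95% Poisson intervals of the recovered tags; dashed lines are the medians of all open promoters, 4.64 and 6.44. All 20 values lie below the line of their own library, Myh11 in replicate 1 closest to it at 4.44.

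Pdgfrb encodes the PDGF receptor beta that pericytes need for recruitment; the gene lies on chromosome 18, positions 61045150 to 61085061 on the plus strand. Its promoter had a value of 1.80 in replicate 1 (interval 1.61 to 2.00) and of 3.87 in replicate 2 (3.58 to 4.18), the widest gap between the libraries among the 10 promoters. The strongest site of the window was not the promoter but a site in intron 9, 23.4 kb into the gene, with 8.26 in replicate 1 (7.85 to 8.69) and 4.23 in replicate 2 (3.93 to 4.55). The site was 4.59 times as high as the promoter in replicate 1 and 1.09 times in replicate 2. A further site 5139 bp upstream reached 4.19 and 3.20, and its nearest coding start was that of Cdx1, 3812 bp away. Both sites held a footprint of both libraries over the core sequence bound by the architectural protein CTCF, 33 and 44 bp wide in the intron and 47 and 40 bp wide upstream. A weaker site in intron 1 (0.837 and 0.816) completed the 4 sites found in both libraries. Replicate 2 had 7 further peaks in this window that replicate 1 lacked, and replicate 1 had 1 of its own.

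Cspg4 encodes the NG2 proteoglycan of the pericyte surface, and its locus on chromosome 9 (56865033 to 56899870, plus strand) was the one with the most open sites. Its window held 23 peaks in replicate 1 and 20 in replicate 2, of which 17 were found in both, a density of 30.7 and 26.7 peaks per 100 kb against medians of 7.49 and 8.78 over all coding genes. The promoter was the highest of them in both libraries, at 2.90 (2.66 to 3.16) and 4.77 (4.44 to 5.10). Inside the gene 9 sites followed it, 5 in the long intron 1 and the others in coding exon 3 and introns 3, 5 and 8. The intron 3 site, 24.9 kb from the start, reached 2.30 and 3.50, or 0.792 and 0.735 of the promoter value. In intron 1 the site 6422 bp from the start had 1.35 in replicate 1 and 3.35 in replicate 2, a difference between the libraries past the threshold (adjusted p = 1.6e-18, exact binomial test with Benjamini-Hochberg adjustment over all shared sites). Upstream, a site 17.3 kb away had 2.66 and 2.54, and its nearest coding start was that of Odf3l1, 4262 bp away. A pair of sites lay at annotated starts of the neighbour Odf3l1 and cannot be assigned to Cspg4 by position.

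Mcam, also called CD146, encodes a cell adhesion molecule of pericytes, smooth muscle and endothelium, and lies on chromosome 9 as well (44134469 to 44142727, plus strand). It had the other dense window, with 20.7 and 33.2 peaks per 100 kb and 8 sites in both libraries. A group of 3 sites lay within 500 bp of its coding starts, the highest with 3.52 in replicate 1 (3.25 to 3.80) and 2.86 in replicate 2 (2.61 to 3.12), and the other two with 1.64 and 2.57, and with 2.02 and 2.51. The highest site of the window was 8351 bp upstream, at 4.61 (4.30 to 4.93) and 4.85 (4.53 to 5.20), 1.31 and 1.70 times the promoter. Its companion 8811 bp upstream had 2.35 and 2.72, and further sites 4351 and 3711 bp upstream had 1.82 and 2.93, and 1.84 and 1.63. All 4 lie within the predicted gene Gm10687. The upstream site is printed because it exceeded the promoter in both libraries, on the strand of the gene with the stretches under footprints of both libraries in capitals; sequences here are of the mm10 reference, from the GRCm38 assembly in RefSeq, while the mice also carry CAST alleles.
Mcam upstream site, chr9:44126121-44126300, plus strand: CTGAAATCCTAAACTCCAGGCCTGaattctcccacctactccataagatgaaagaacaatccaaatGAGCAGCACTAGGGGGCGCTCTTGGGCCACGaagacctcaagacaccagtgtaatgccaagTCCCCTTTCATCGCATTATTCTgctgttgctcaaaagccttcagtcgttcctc

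Rgs5, Kcnj8 and Abcc9 are among the most specific pericyte transcripts known. Rgs5 encodes a regulator of G protein signalling that dampens contraction signals, on chromosome 1 (169655501 to 169695813, plus strand). Its promoter had the lowest value of the 10 in replicate 1, 0.397 (0.311 to 0.499, on 73 tags), and 0.769 in replicate 2 (0.643 to 0.912, on 131 tags). The window was sparse, with 2 peaks in replicate 1 and 7 in replicate 2. Its second shared site, in intron 1 at 15.3 kb, had 0.740 and 0.558, so that it stood above the promoter in replicate 1 and below it in replicate 2, and held a CTCF core in a footprint. In replicate 1 0.463% of the bases of the window were listed by the authors at a false discovery rate (FDR) under 0.05, and in replicate 2 1.90%, against medians of 2.57% and 2.93% over all coding genes.

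Kcnj8 and Abcc9 encode Kir6.1 and SUR2, the pore and the regulatory subunit of the ATP-sensitive potassium channel of vascular mural cells, and are neighbours on chromosome 6, both on the minus strand (142564837 to 142571614 and 142587862 to 142702315). SUR2 also serves the channel of heart and skeletal muscle fibres, so that Abcc9 is not a marker of mural cells alone. Each had an open promoter, Kcnj8 with 2.18 (1.97 to 2.40) and 3.40 (3.13 to 3.69) and Abcc9 with 1.59 (1.42 to 1.79) and 2.01 (1.81 to 2.24). For Kcnj8 the other site found in both libraries was much weaker, in intron 2 with 0.598 and 0.376, which is 0.274 and 0.111 of the promoter. Abcc9 had a site in intron 14, 34.0 kb from its start, with 1.10 in replicate 1 (0.957 to 1.27) and 2.44 in replicate 2 (2.21 to 2.69), or 0.693 and 1.21 of the promoter. The libraries differed there by 1.15 on the log2 scale (replicate 2 over replicate 1, adjusted p = 3.2e-10, exact binomial test). The rest of the long gene body was quiet, with further intronic sites of 0.451 and 0.505, of 0.435 and 0.587, and of 0.402 and 0.581.

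The intron 14 site of Abcc9 is shown because it holds matches to TGGGAA, the sequence bound by RBPJ, the transcription factor of the Notch pathway that acts in mural cell maturation. Of its 3 matches, 1 lay in a footprint of both libraries. Capitals mark the stretches under shared footprints, on the strand of the gene, where the match in a footprint reads as its reverse complement.
Abcc9 intron 14 site, chr6:142668201-142668380, minus strand: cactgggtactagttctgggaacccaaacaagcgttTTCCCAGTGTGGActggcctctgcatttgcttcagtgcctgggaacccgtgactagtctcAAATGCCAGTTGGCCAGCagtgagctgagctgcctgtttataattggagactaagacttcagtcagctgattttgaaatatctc

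Myh11 encodes the smooth muscle myosin heavy chain, the most specific contractile gene of the set, on chromosome 16 (14194535 to 14291372, minus strand). Its promoter had the highest value of the 10 in replicate 1, 4.44 (4.14 to 4.76), and 3.13 in replicate 2 (2.87 to 3.41). The joint span of its peaks in the libraries held 6 footprints of both libraries. The peak itself held 5 footprints in replicate 1 and 6 in replicate 2. No site in the window exceeded the promoter in both libraries. The intron 10 site, 53.9 kb into the gene, had 2.89 and 2.66, and the intron 3 site at 32.4 kb had 1.71 and 3.64. The site in intron 41 near the end of the gene had 1.84 in replicate 1 and 0.716 in replicate 2 (adjusted p = 1.3e-31, exact binomial test). A pair of weak sites lay 1029 and 1629 bp upstream, with 0.691 and 0.851, and with 0.658 and 0.698. In all, 9 of the 10 peaks of each library had a partner in the other. The part of the promoter peak upstream of the first start is printed, as Myh11 had the highest promoter of Myh11, Tagln and Cnn1, with the stretches under shared footprints in capitals.
Myh11 promoter, chr16:14291373-14291540, minus strand: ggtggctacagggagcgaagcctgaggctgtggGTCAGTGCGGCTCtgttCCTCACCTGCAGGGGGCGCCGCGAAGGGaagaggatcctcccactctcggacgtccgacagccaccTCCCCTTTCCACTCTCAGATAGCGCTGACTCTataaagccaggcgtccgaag

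Tagln and Cnn1 encode transgelin (SM22 alpha) and calponin 1, actin-binding proteins of smooth muscle, and both lie on chromosome 9, Tagln at 45929619 to 45936058 on the minus strand and Cnn1 at 22099216 to 22109630 on the plus strand. Their promoters were weak in both libraries, Tagln with 1.33 (1.17 to 1.50) and 1.26 (1.10 to 1.44) and Cnn1 with 0.729 (0.611 to 0.863) and 0.869 (0.734 to 1.02). Each had a stronger site a short way upstream. For Tagln it lay 1013 bp upstream with 2.46 (2.24 to 2.70) and 2.41 (2.18 to 2.66), 1.85 and 1.91 times the promoter. For Cnn1 it lay 3015 bp upstream with 4.55 (4.24 to 4.87) and 4.51 (4.19 to 4.84), 6.24 and 5.19 times the promoter, the largest ratio among the 10 genes in both libraries. The nearest coding start to both sites is that of the gene named. Both windows were rich in peaks, with 17.2 per 100 kb at Tagln and 15.9 at Cnn1 in each library, and all 8 Cnn1 peaks of each library had a partner in the other. Part of that richness belongs to neighbours, since sites lay at the starts of Sidt2 near Tagln (4.64 and 7.64) and of Ecsit (3.71 and 8.34) and Elof1 (3.96 and 6.33) near Cnn1. Downstream of Tagln, sites within Pcsk7 at 18.3 and 24.2 kb had 1.71 and 3.59, and 2.43 and 2.00.

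The narrower replicate 2 peak of the Tagln upstream site is printed on the strand of the gene. It shows 1 of the 2 shared footprints of the site, in capitals.
Tagln upstream site, chr9:45937021-45937120, minus strand: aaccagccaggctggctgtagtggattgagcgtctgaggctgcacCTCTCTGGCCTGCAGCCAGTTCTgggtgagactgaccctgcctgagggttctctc

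Myocd, on chromosome 11 (65176561 to 65269989, minus strand), had a promoter of 0.468 in replicate 1 (0.374 to 0.578, on 86 tags) and 0.563 in replicate 2 (0.456 to 0.688, on 96 tags), the lowest of the 10 in replicate 2. Myocardin is also a factor of heart muscle. Its strongest site away from starts lay in intron 7, 72.5 kb from the first coding start and 7996 bp from the nearest coding start of Myocd itself. That site had 1.93 (1.73 to 2.14) and 1.67 (1.48 to 1.88), 4.13 and 2.97 times the promoter. A weak site 1239 bp upstream had 0.435 and 0.293. Fewer peaks were shared here than at the other long genes: of 9 peaks in each library, 4 had a partner, 1 of them at the start of the neighbour Arhgap44 (2.67 and 2.35). The intron 7 site held 1 footprint of both libraries, in capitals on the strand of the gene.
Myocd intron 7 site, chr11:65197401-65197540, minus strand: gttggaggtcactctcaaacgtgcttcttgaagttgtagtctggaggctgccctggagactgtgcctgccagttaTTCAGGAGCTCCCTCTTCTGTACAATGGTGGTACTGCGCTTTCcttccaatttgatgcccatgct

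**Figure D2:**
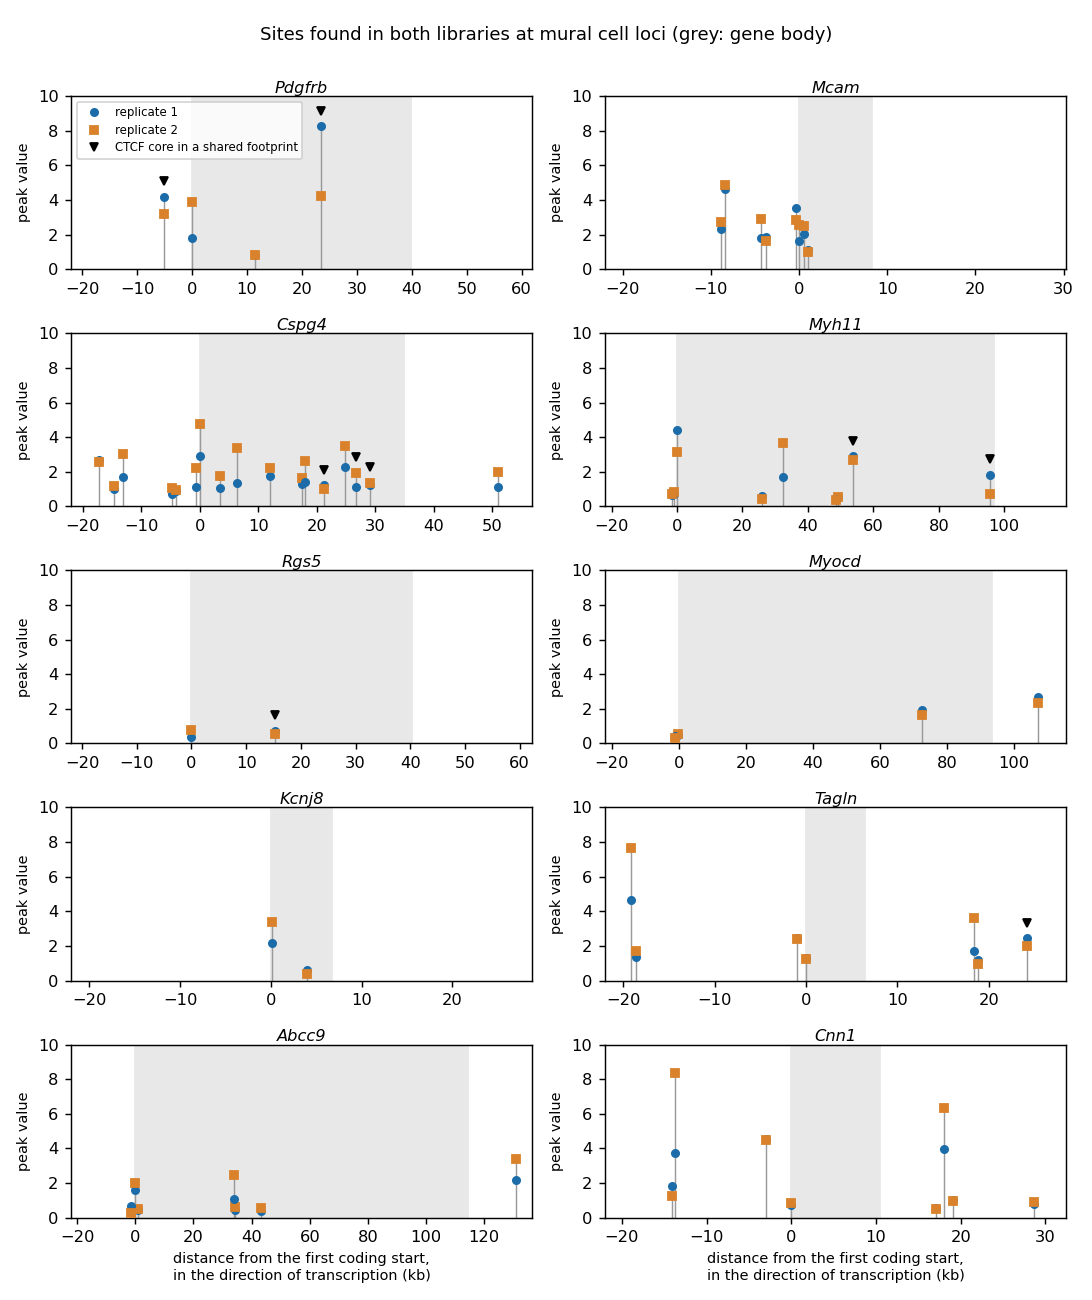
Peak values (depth-scaled signal) of the sites found in both libraries in each window, against the distance from the first coding start in the direction of transcription (kb), with the gene body in grey and triangles over sites with a CTCF core in a shared footprint. Cspg4 shows sites along its whole length, Rgs5 and Kcnj8 show 2 sites each, and the Cnn1 promoter at 0 is far lower than the site 3.02 kb upstream.

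Across the set, the highest site over 500 bp from every start was chosen by the geometric mean of both libraries. It stood above the promoter in both libraries at 5 genes, Pdgfrb, Mcam, Myocd, Tagln and Cnn1. It stood below the promoter in both at Cspg4, Kcnj8 and Myh11, and the libraries were split at Rgs5 and Abcc9. For the sites so chosen, the order was therefore the same in both libraries at 8 of the 10 genes. At Myh11 the chosen site was the one in intron 10. The Myh11 site in intron 3 stood above the promoter in replicate 2 alone (3.64 against 3.13). By role, the contractile genes fell on both sides by the geometric mean. Myh11 was led by its promoter, Cnn1 by its upstream site and Tagln by the site 18.3 kb downstream within Pcsk7. The geometric mean of that Tagln site, 2.48, was close to the 2.43 of the site 1013 bp upstream.

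**Figure D3:**
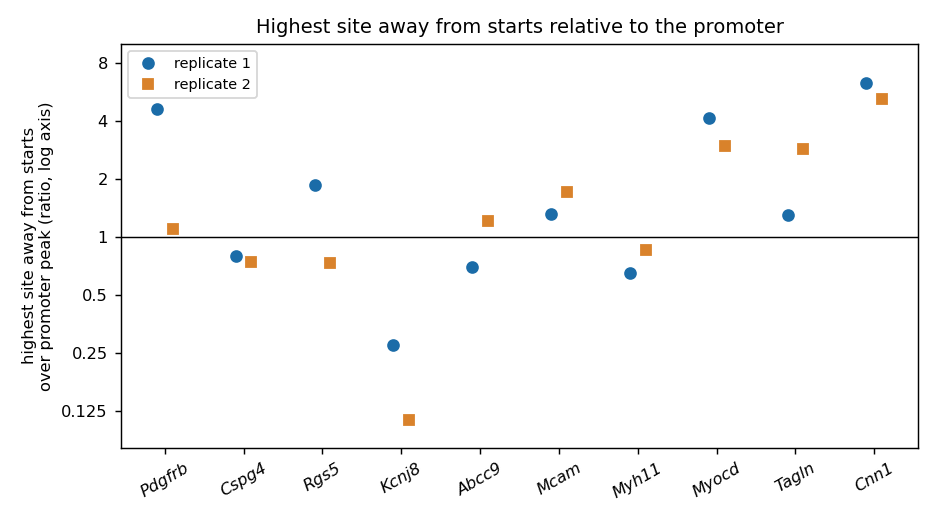
Ratio of the highest site away from starts to the promoter peak of the same gene (log axis) in replicate 1 and replicate 2. The site was chosen by the geometric mean of both libraries, and the line marks a ratio of 1. Cnn1 is highest in both libraries (6.24 and 5.19) and Kcnj8 lowest (0.274 and 0.111), and Rgs5 and Abcc9 change sides between the libraries.

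In number, the windows held 85 peaks in replicate 1 and 100 in replicate 2, with 67 sites found in both. These sites take in 78.8% of the replicate 1 peaks and 67.0% of the replicate 2 peaks, against 77.2% and 63.4% over the genome. Peaks without a partner were weak: the 18 of replicate 1 had a median of 0.522 and at most 1.03, and the 33 of replicate 2 a median of 0.640 and at most 1.22. Of the 67 sites, 12 lay within 500 bp of a coding start of one of the genes, 8 at another annotated start and 47 away from starts, and for 46 the nearest coding start was that of the gene itself. Their medians of 1.35 and 1.77 compare with 0.941 and 1.16 over all 95172 shared sites. Density was not high throughout: Cspg4, Mcam, Tagln and Cnn1 lay above the medians of all coding genes in both libraries, in peaks per 100 kb and in listed bases. Abcc9, Myh11, Myocd and Rgs5 lay below them in both libraries on both measures, and Pdgfrb and Kcnj8 changed sides between the libraries. Listed bases ranged from 0.463% at Rgs5 to 7.69% at Cspg4 in replicate 1 and from 1.83% at Myocd to 9.93% at Mcam in replicate 2.

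**Figure D4:**
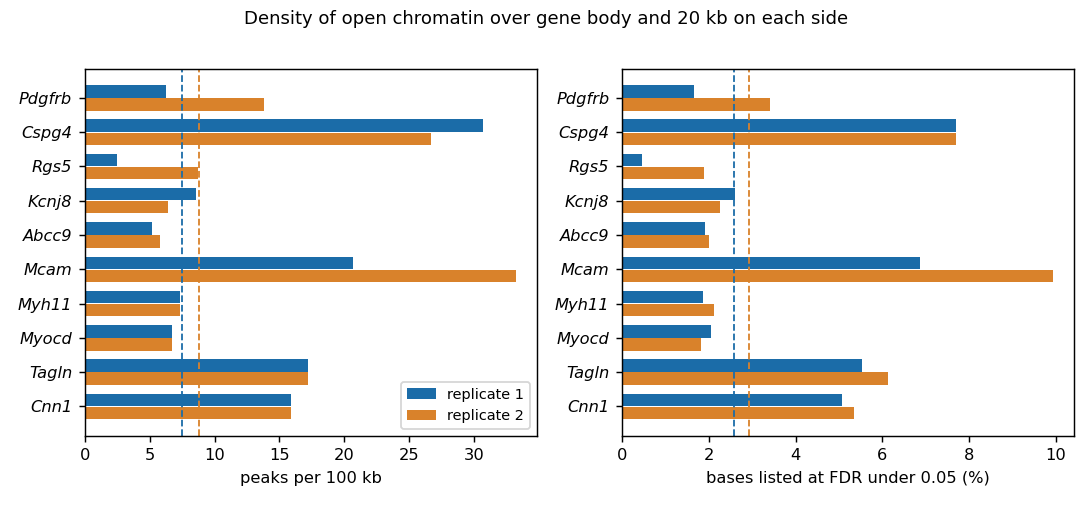
Peaks per 100 kb (left) and percentage of bases listed at an FDR under 0.05 (right) over each gene body and 20 kb on each side, in replicate 1 and replicate 2; dashed lines are the medians of all protein-coding genes in the same library (7.49 and 8.78 peaks per 100 kb, 2.57% and 2.93% of bases). Cspg4, Mcam, Tagln and Cnn1 pass both lines in both panels.

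The CArG box, the SRF sequence named in the background, was searched in the windows as an exact consensus on both strands. There were 42 boxes, and 2 of them lay in a peak of both libraries, at Tagln and at Myh11. Another 5 lay within 2000 bp of a first start but outside the peaks, for 7 in all at that distance. The Tagln box 15 bp into the gene lay in the promoter peak (1.33 and 1.26), and an 8-bp footprint covered 6 of its bases in replicate 1 and another 3 of its bases in replicate 2. The other Tagln box, 108 bp upstream, lay outside the peaks of both libraries. The Myh11 box 954 bp upstream lay in the weak peak of 0.691 and 0.851, with no footprint over it and the nearest 10 bp away in replicate 1 and 11 bp away in replicate 2. None of the 105 footprints shared by the libraries in these windows held a whole exact box (0 of 105), while 0.0450% of all 135643 shared footprints did. The exact box occurred within 75 bp of the midpoint of 1 of the 67 sites, or 1.49%, against 0.576% of all shared sites. It was in 1.45% of the promoters of all coding genes (250 bp before to 50 bp after the start). With 1 mismatch allowed, the box was near the midpoint of 10 of the 67 sites, or 14.9%, against 8.30% of all shared sites. It was still in 0 of the 105 shared footprints, against 0.557% of all. These are matches of letters and say nothing on binding.

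The boxes within that distance of the starts of Tagln, Myh11, Cnn1, Cspg4 and Rgs5 are printed with 10 bases on each side and the box in capitals, on the strand of the gene.
Tagln box 15 bp into the gene, in a peak, chr9:45936028-45936057, minus strand: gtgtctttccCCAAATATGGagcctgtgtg
Tagln box 108 bp upstream, outside the peaks, chr9:45936151-45936180, minus strand: agggtcctgcCCATAAAAGGtttttcccgg
Myh11 box 954 bp upstream, in a peak, chr16:14292311-14292340, minus strand: gcctcgacttCCTTTTATGGcctgagtggt
Cnn1 box 915 bp into the gene, outside the peaks, chr9:22100116-22100145, plus strand: agccgccgcgCCTTATAAGGcggccttggg
Cspg4 box 1601 bp upstream, outside the peaks, chr9:56863417-56863446, plus strand: aaccctggatCCATATTTGGacagtaattg
Rgs5 box 983 bp into the gene, outside the peaks, chr1:169656469-169656498, plus strand: tgaccctcaaCCATTAAAGGgagtaaaact

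Of 11 motifs searched, the one seen most beside the degenerate E-box in these footprints was the CTCF core. It lay in 9 of the 105 shared footprints, or 8.57%, against 3.50% of all shared footprints. It also lay within 75 bp of the midpoint of 8 of the 67 sites, or 11.9% against 5.79% of all shared sites. A motif was counted where it lay in the joint span of the footprints of both libraries, so that the footprint of a single library can cut it. The replicate 1 footprint did so at the core in Cspg4 coding exon 3. The 9 footprints with the core were 13 to 47 bp wide and stood in 5 of the genes. There were 3 in Cspg4, 2 each in Pdgfrb and Myh11 and 1 each in the Rgs5 and Tagln windows. All but the upstream one of Pdgfrb and the one of the Tagln window, which lies within Pcsk7, were inside the gene bodies. In Cspg4 they followed each other through coding exon 3, intron 5 and intron 8. Whether the share among these genes differs from that of other genes was not tested. The core was a 12-base match, and near matches were not counted. The Myh11 promoter printed above, for example, holds in capitals a stretch 1 base off the Rgs5 core. The Mcam upstream site holds a similar stretch in capitals. The counted cores printed here have 10 bases on each side and the core in capitals, on the strand of the gene.
Cspg4 coding exon 3, chr9:56886279-56886310, plus strand: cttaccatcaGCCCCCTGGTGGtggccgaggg
Cspg4 intron 5, chr9:56891578-56891609, plus strand: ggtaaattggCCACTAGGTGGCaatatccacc
Cspg4 intron 8, chr9:56894198-56894229, plus strand: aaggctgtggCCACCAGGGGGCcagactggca
Rgs5 intron 1, chr1:169670813-169670844, plus strand: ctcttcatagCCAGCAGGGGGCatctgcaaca
Myh11 intron 10, chr16:14237492-14237523, minus strand: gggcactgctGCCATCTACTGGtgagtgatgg
Myh11 intron 41, chr16:14195588-14195619, minus strand: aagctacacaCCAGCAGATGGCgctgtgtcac
Tagln window, within Pcsk7, chr9:45911850-45911881, minus strand: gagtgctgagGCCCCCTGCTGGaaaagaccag

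Other motifs were rarer. By the rule given for CTCF, the RBPJ sequence lay in 4 of the 105 shared footprints (3.81%, against 1.70% of all). These were in Abcc9 intron 14, upstream of Mcam, at the Odf3l1 start beside Cspg4 and at the Sidt2 start beside Tagln. Upstream of Mcam the replicate 2 footprint cut the match, and at the Odf3l1 start the replicate 1 footprint did. The RBPJ sequence was in 25.2% of all 300-bp promoters, so that a match by itself is common. The GC box of SP and KLF factors (GGGCGG) lay in 4 footprints, or 3.81%, against 9.53% of all, at the promoters of Cspg4 and Kcnj8 and at the starts of Sidt2 and Ecsit. The TEAD sequence (CATTCC) lay in 1 footprint, downstream of Cspg4. E-boxes (CANNTG) lay in 10 footprints, or 9.52%, against 9.98% of all, and 3 of these overlapped a CTCF core. The E-box of Myh11 intron 3 lay in the replicate 2 footprint and outside that of replicate 1. The MEF2, AP-1, FOX, GATA and NFI sequences were in none of the 105 footprints, where they were in 0.0258%, 0.183%, 0.0317%, 0.0251% and 0.0774% of all.

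The libraries differed at many of these sites. With the null share of replicate 1 set at 45.8%, its part of the tags of all shared sites, an exact binomial test adjusted over all 95172 sites (threshold 0.05) called 47 of the 67 sites, or 70.1%, against 59.3% of all sites. Of the 47, replicate 1 held more than its null share of the tags at 27 and less at 20. This direction is not always that of the scaled values. The Mcam site 8351 bp upstream, at 4.61 in replicate 1 and 4.85 in replicate 2, counts among the 27. Near equal values can also be called, as at the Cnn1 upstream site (4.55 and 4.51). The test takes only counting error into account and compares these 2 libraries. On the log2 scale (replicate 2 over replicate 1) the 10 promoters ranged from -0.51 at Myh11 to 1.11 at Pdgfrb with a median of 0.30, inside the range that held the central 95% of all open promoters (-0.58 to 1.21, median 0.44). Of the 67 sites, 3 lay outside the central range of all shared sites. The intron 9 site of Pdgfrb, at -0.97, the intron 41 site of Myh11, at -1.36, and a site 1330 bp upstream of Abcc9, at -1.31 (0.653 in replicate 1 and 0.264 in replicate 2), lay beyond its lower end (-0.88 to 1.36).

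Of 48 genes on the other mural lists, 42 had an open promoter in both libraries, where 66.0% of all protein-coding genes did. Of 11 other pericyte genes 10 were open, with medians of 1.98 and 2.70, led by Gja4, a gap junction protein of vessels (2.68 and 5.02), and the transcription factors Tbx18 (2.50 and 5.22) and Foxc1 (2.74 and 4.49); Higd1b had no peak at its promoter. All 5 genes of the PDGF ligands and the other receptor were open (medians 2.96 and 2.70), with Pdgfra, the receptor of fibroblasts, at 5.25 and 5.57. Pdgfa had 3.26 and 5.70, and Pdgfb, the ligand that endothelium makes for pericytes, had 2.96 and 2.70.

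Of 14 other contractile genes of smooth muscle 10 were open, or 71.4%, close to the 66.0% of all protein-coding genes. Their medians were 1.77 and 2.78, and they were led by Smtn (smoothelin, 4.86 and 9.20), Des (desmin, 4.91 and 8.79) and Itga8 (an integrin subunit, 7.17 and 5.65). Des is a myofibre gene as well, as are Tpm2 and Casq2 on the same list. No promoter peak was found in either library at Actg2, the enteric smooth muscle actin, Pln (phospholamban) and Kcnmb1, a potassium channel subunit of smooth muscle. Mylk, the myosin light chain kinase, had one of 0.329 in replicate 2 alone. Acta2, the alpha actin of smooth muscle, had 1.41 and 2.38.

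The regulators stood higher. Of 10 genes 9 were open, with medians of 5.23 and 7.22, led by Mrtfa, an SRF coactivator related to myocardin (11.1 and 21.6), Tead1 (12.4 and 11.8) and Klf4 (7.75 and 12.3). Srf itself had 5.23 and 13.9, so that its promoter and that of Mrtfa were over 10 times those of Myocd in both libraries. Foxf1 had 0.756 in replicate 1 alone. These regulators act in many cell types, and the median CpG ratio of the 10 mural promoters was 0.379, against 0.820 for theirs. All 8 genes of vasoactive signalling were open with medians of 1.44 and 2.18, led by Pde5a, the phosphodiesterase of cyclic GMP (5.93 and 4.95), the sphingosine phosphate receptor S1pr3 (1.76 and 3.92) and the angiotensin receptor Agtr1a (2.03 and 2.37).

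Markers of other cells of the tissue give the scale. The medians of the mural set, 1.70 and 2.44, lay above those of the open endothelial promoters (0.930 and 1.19, 11 of 14 open, led by Egfl7, Flt1 and Esam) and below those of myofibre genes (2.48 and 3.92, 12 of 12 open, led by Mylpf, Ckm and Myod1). They were also below those of open fibro-adipogenic progenitor promoters (2.58 and 5.39, 9 of 12 open, led by Col1a1, Osr2 and Pdgfra). The same held against the open promoters of Schwann cell genes (2.70 and 4.15, 6 of 8 open). Genes not open in both libraries are left out of these medians. That removes genes from the progenitor, Schwann cell and endothelial lists but not from the mural list. The order is therefore one of open promoters, not of all genes listed. Of 12 macrophage genes, 1 was open in both libraries, Lyz2 with 0.353 and 0.605, and 7 in replicate 2. Erg and Vwf of the endothelial list, Ly6a of the progenitor list and Adgre1, Ptprc, Cx3cr1, Fcgr1 and Itgam of the macrophage list had no promoter peak in either library. These lists differ in the kind of promoter and in length, no test between them was made, and the share of each cell type in the tissue was not measured.

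**Figure D5:**
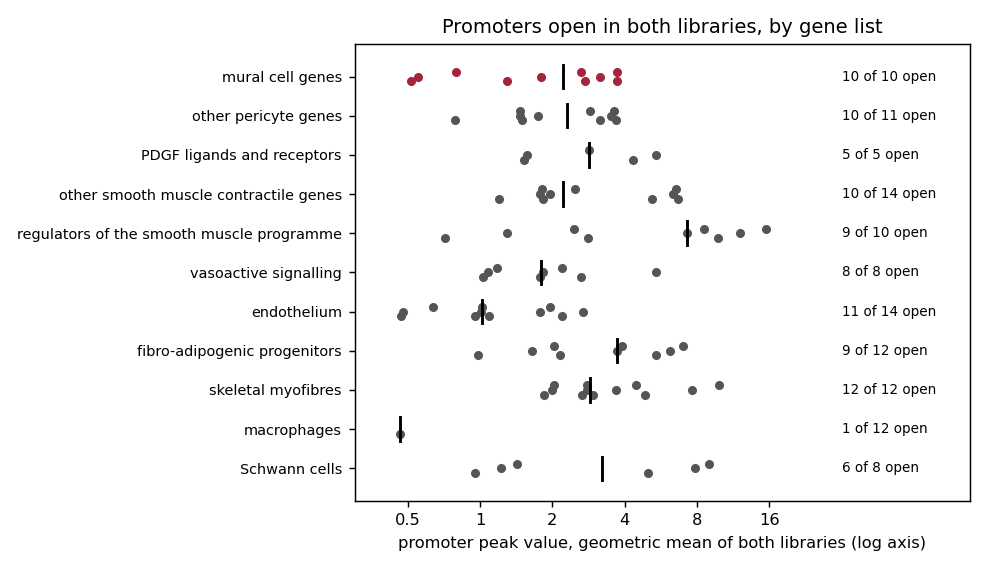
Promoter peak value of each gene open in both libraries (geometric mean of both, log axis), by list, with the median as a bar and the number open at the right. The mural cell genes, in red on top, span 0.513 to 3.73 and overlap most of the other lists; the regulators reach 15.5 at Mrtfa.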

How the data were processed

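Each library's files were made from its own filtered alignments to mm10, per the labels and the notes deposited with them; the sources used here name no aligner, peak caller, footprint caller or counting window for tags. Peak values are a deposited signal that the authors scaled to depth, as the values show, which are whole multiples (within 0.05 of a step) of 0.00544 in replicate 1 and 0.00587 in replicate 2; tags are the value divided by the step. Tags can hold copies made by PCR. For each base listed, the authors deposited a p-value adjusted as an FDR, always under 0.05; each deposited footprint carries the same p-value of 0.01, so only positions were used. Of the 2 peak sets per library the wider was used, and the narrower served as the stricter one.

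A site was a peak of each library overlapping by at least 1 bp, paired one to one by the longest overlap, and a footprint was shared at 50% of both. Percentiles and medians are over 21853 coding genes of GENCODE M21; sequence came from GRCm38. Matches to the B6 reference may be fewer for CAST reads, which was not tested. The members and lists were chosen with earlier results of these data known. Named were all 10 genes, their promoters and up to 3 highest sites away from starts, and on each other list the 3 highest promoters and those without a peak; other genes and sites were named after their values were seen. A few items are not reported here. Python 3.11.15 with numpy 2.4.6, pandas 2.3.3 and scipy 1.17.1 was used, and the binomial test was tested on simulated data. Alternatives tried were flanks, promoter windows, peak sets, overlaps, null shares, motif rules, FDR limits and single libraries.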

Additional observations from a re-analysis of the deposited data

How the results depend on the processing

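The 10 open promoters stayed 10 with windows of 250 or 1000 bp, with the most upstream start alone and in each library alone, and were 7 in the stricter peak set. Peaks of both libraries in the windows numbered 185, and 340 with 50 kb on each side or 121 in the stricter set; sites found in both were 67, and 44 in the stricter set. Footprints in both libraries were 105, while replicate 1 alone had 241 and replicate 2 alone 298, since a single library needs no partner. Exact CArG boxes in shared footprints were 0, and 1 lay within 75 bp of a site's midpoint. The median of listed bases over the 10 genes was 2.49% (mean of both libraries), 1.40% at an FDR under 0.001 and 2.91% with 10 kb on each side. The sites called different between the libraries were 47, and 43 or 37 with other null shares. The other mural lists had 42 open promoters, 43 in a window of 1000 bp and 39 in the stricter set. The other alternatives moved their counts by less than 1.5 times. No paired analysis was possible because there is 1 group. Depth limits the weakest values: the Rgs5 promoter rested on 73 tags in replicate 1.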
